A study of Mus musculus with 16 samples.

Results

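The genes described here make ribosomes: 38 genes of RNA polymerase I and of ribosome biogenesis, chosen by name for their roles, measured on 16 microarrays of primary mouse podocytes. Each of the 38 had at least 1 probe that could be tested, out of 14094 genes with such a probe and 22911 genes matched in all. A member is represented by its brightest tested probe unless stated otherwise. The arrays hold 4 samples in each of 4 groups, all from male Jcl:ICR mice. Tsc2Δpodocyte mice carry floxed *Tsc2* alleles and a Cre recombinase expressed in podocytes, so that *Tsc2* is deleted in podocytes. Tsc2flox/flox mice carry the floxed alleles without Cre. Both untreated groups were 4 weeks old. The groups Tsc2Δpodocyte + Rapamycin and Tsc2flox/flox + Rapamycin were 5 weeks old, 1 week after rapamycin according to the labels. Podocytes, the filtering epithelial cells of the glomerulus, were grown as outgrowths of isolated glomeruli. No group here carried Cre without floxed *Tsc2*, so an effect of Cre itself cannot be told apart from the deletion. The labels do not name the animal of each sample, so p-values describe the spread between these samples.

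RNA polymerase I transcribes 1 long precursor from the ribosomal DNA repeats in the nucleolus. *Ubtf* and the selectivity factor that contains *Taf1d* open and mark the promoter, and *Rrn3* brings the polymerase to it. Small nucleolar ribonucleoproteins then modify the precursor, the box C/D type by methylation and the box H/ACA type by pseudouridylation, while processome and assembly factors cut it and fold it into the small and the large ribosomal subunit. The product of *Tsc2* restrains the kinase complex mTORC1, which is known to promote this work in many cells, and rapamycin inhibits mTORC1. Whether these genes differed with the deletion, and whether rapamycin altered that, is what the comparisons address.

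The E-box, the letters CACGTG (its own reverse complement, so both strands read alike), is bound by MYC with its partner MAX, and MYC is known to drive many genes of this pathway. RefSeq promoters on build GRCm38.p6, from 250 bases before to 50 bases after a start, were listed for 33 members, and 7 of them (21.2%) held the E-box, against 8.09% of 27025 genes in the same table. The motif lay before the start only in *Rrn3* and *Nop2*, and those stretches are printed here for that reason, 5′ to 3′, with the E-box in capitals. The *Rrn3* stretch is chr16:13780449-13780698 and the *Nop2* stretch chr6:125131633-125131882, both on the plus strand and each ending at the base before the start.
Rrn3: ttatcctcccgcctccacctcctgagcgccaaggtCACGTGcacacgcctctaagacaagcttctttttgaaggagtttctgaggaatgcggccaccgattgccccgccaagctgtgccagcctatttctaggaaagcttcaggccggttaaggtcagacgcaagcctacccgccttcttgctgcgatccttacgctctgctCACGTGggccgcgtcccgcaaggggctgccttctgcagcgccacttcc
Nop2: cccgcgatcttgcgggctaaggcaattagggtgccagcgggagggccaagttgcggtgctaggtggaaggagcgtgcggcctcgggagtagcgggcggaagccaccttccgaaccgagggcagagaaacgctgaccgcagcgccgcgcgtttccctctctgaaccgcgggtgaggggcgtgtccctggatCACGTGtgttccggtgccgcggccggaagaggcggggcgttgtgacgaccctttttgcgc
The *Rrn3* motifs begin 215 and 48 bases before the start and the *Nop2* motif 60 bases before it. In *Utp4*, *Ltv1*, *Utp20*, *Pes1* and *Wdr43* the motif lay after the start. None of the 7 genes passed the test between the untreated genotypes, nor did 30 of the 33 listed members in all.

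*Tsc2* itself was lower on each Tsc2Δpodocyte array than on each Tsc2flox/flox array, by 1.35 on the log2 scale without rapamycin (limma, adjusted p = 0.000970) and by 0.99 after it (adjusted p = 0.0124). Between 28696 and 32918 spots per array were well above background. All 17 podocyte markers examined had a tested probe. Without rapamycin their mean log2 level lay between 1.69 and 2.59 on Tsc2Δpodocyte arrays and between 1.54 and 2.18 on Tsc2flox/flox arrays. *Wt1* and *Synpo* were well above background on all arrays, and *Nphs1* on 3 of 4 Tsc2Δpodocyte arrays and on all others. Endothelial markers (12 of 12 tested) had a mean log2 level between -2.24 and 0.86 on the untreated arrays and between -2.74 and -1.42 on the treated ones. Macrophage and leukocyte markers (14 of 14 tested) lay between -0.87 and 0.07 in Tsc2Δpodocyte and between -1.57 and -0.36 in Tsc2flox/flox samples, and mesangial and smooth muscle markers (12 of 12) between 2.32 and 2.71 against 1.81 and 2.19. Parietal epithelial markers (9 of 9) lay between 1.47 and 2.46 in Tsc2Δpodocyte and between 2.39 and 3.15 in Tsc2flox/flox samples, and tubule markers (6 of 10 tested) between -2.88 and -1.21 against -1.90 and -1.07. Between the untreated genotypes 4 mesangial and 2 macrophage markers rose at an adjusted p under 0.05 (limma), and 2 parietal markers and 1 tubule marker fell. Of the podocyte markers 1 rose and 1 fell, and 0 endothelial markers passed. Among all genes 10.3% rose and 9.2% fell. The part of these other cell types in the results below was not tested, and in cultures of mixed cells fewer cells of a type and less RNA per cell cannot be told apart.

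Between the genotypes without rapamycin, few genes of ribosome production differed beyond the spread between samples. Of the 38 genes, *Ubtf* rose and *Nop58*, *Gar1* and *Bop1* fell at an adjusted p under 0.05, and 34 did not pass. Among all genes tested 10.3% rose and 9.2% fell, so neither count stands above the background. No member reached a 1.5-fold difference. The log2 difference was below 0 in 35 members and above 0 in 3, with a median of -0.19 against -0.01 over all genes. Of the members, 13 of 38 had an unadjusted p under 0.05, as had 4842 of the 14094 genes. Differences are log2 differences from the moderated test of limma, adjusted over all probes tested. Each p rests on 4 samples a group, with the spread estimated over all 16 arrays.

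**Figure D1:**
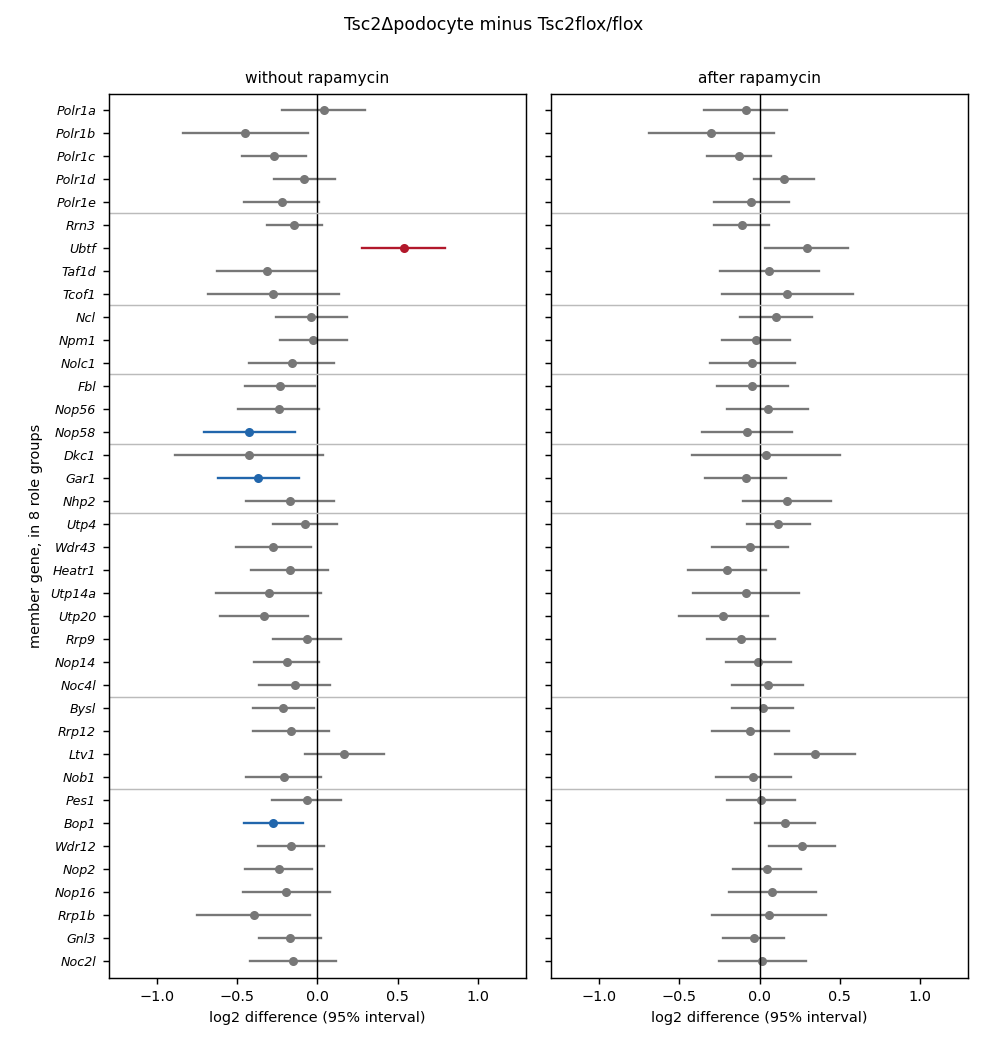
Log2 difference between Tsc2Δpodocyte and Tsc2flox/flox podocytes for each of the 38 genes (points, with 95% intervals from limma), without rapamycin on the left and after rapamycin on the right; grey lines separate the 8 role groups. Red marks the gene that rose (*Ubtf*) and blue the 3 that fell (*Nop58*, *Gar1*, *Bop1*) at an adjusted p under 0.05, and the right panel has no such gene.

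Among the subunits of RNA polymerase I, 0 of 5 passed. *Polr1c*, a subunit shared with RNA polymerase III, had the smallest p. It measured 3.06, 2.98, 3.25 and 3.17 in Tsc2Δpodocyte samples and 3.21, 3.53, 3.38 and 3.42 in Tsc2flox/flox samples, on the normalized log2 scale. The groups overlap, since 1 Tsc2Δpodocyte array lay above the lowest Tsc2flox/flox array. The log2 difference was -0.27 (SE 0.09, adjusted p = 0.0570), a 1.21-fold lower level, and its other probe gave -0.26. *Polr1b*, the second largest subunit, was at -0.45 (SE 0.18, adjusted p = 0.103), with 1 Tsc2Δpodocyte array at -0.93 and the other 3 between -0.11 and 0.02. The largest subunit *Polr1a* was at 0.04, *Polr1d*, also shared with RNA polymerase III, at -0.08, and *Polr1e* at -0.22.

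Of the 4 factors that act with the polymerase at the promoter or on its output, only *Ubtf* passed, and its probes disagree. *Ubtf* encodes the upstream binding factor that coats active ribosomal DNA. On the brighter probe the Tsc2Δpodocyte samples measured 7.01, 7.0, 6.96 and 6.97 (6.99 ± 0.02, SD, n = 4) and the Tsc2flox/flox samples 6.29, 6.62, 6.52 and 6.36 (6.45 ± 0.15). All Tsc2Δpodocyte values lay above all Tsc2flox/flox values, and the difference was 0.54 (SE 0.12, adjusted p = 0.00776; 1.45-fold; 2-sided exact permutation test, p = 0.0286, the smallest that 4 against 4 samples allow). The dimmer probe, assigned to the same transcript, went the other way. It measured 0.85, 0.76, 0.72 and 0.54 in Tsc2Δpodocyte and 1.16, 1.14, 0.98 and 1.08 in Tsc2flox/flox samples. There all Tsc2Δpodocyte values were the lower ones, with a difference of -0.37 (SE 0.10, adjusted p = 0.0183). When the probes of each gene were averaged, the difference of *Ubtf* was 0.08 (adjusted p = 0.485). The direction of *Ubtf* therefore depends on the probe. RefSeq lists 6 starts for the gene. The positions of the probes in the gene were not checked, and a part of the starts in the disagreement was not tested. *Rrn3*, which recruits the polymerase, was at -0.14, the selectivity factor subunit *Taf1d* at -0.32 and *Tcof1*, the treacle protein of the nucleolus, at -0.28, none of them past the test.

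The nucleolar organisers and chaperones did not pass in 3 of 3 cases. *Nolc1*, a chaperone of small nucleolar ribonucleoproteins, had the smallest p. It measured 3.23, 2.93, 3.38 and 3.39 against 3.20, 3.63, 3.31 and 3.42 in Tsc2flox/flox samples, with overlapping groups and a difference of -0.16 (SE 0.12, adjusted p = 0.395). Nucleolin (*Ncl*) was at -0.04 and nucleophosmin (*Npm1*) at -0.02, the members closest to no difference beside *Polr1a*. The dimmer *Ncl* probe gave -0.47, and the other 2 probes of *Npm1* -0.12 and -0.11, none past the test.

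Both classes of small nucleolar ribonucleoprotein held a gene that fell. *Nop58*, a scaffold protein of the box C/D class, measured 3.5, 3.14, 3.81 and 3.71 in Tsc2Δpodocyte samples (3.54 ± 0.29) and 3.86, 4.20, 3.93 and 3.85 in Tsc2flox/flox samples (3.96 ± 0.16). The highest Tsc2Δpodocyte value lay just under the lowest Tsc2flox/flox value. The difference was -0.42 (SE 0.13, adjusted p = 0.0387; 1.34-fold lower; exact permutation p = 0.0286). Its other 3 probes gave between -0.50 and -0.22, and 2 of them passed. The partner *Nop56* was at -0.24 and the methyltransferase fibrillarin (*Fbl*) at -0.23; the 4 *Fbl* values of Tsc2Δpodocyte samples, 4.87 to 5.12, all lay under the 5.13 to 5.54 of Tsc2flox/flox samples, with adjusted p = 0.130.

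*Gar1*, a core protein of the box H/ACA class, measured 4.09, 3.86, 4.20 and 4.25 (4.10 ± 0.17) against 4.33, 4.70, 4.38 and 4.46 (4.47 ± 0.17). The groups did not overlap, and the difference was -0.37 (SE 0.12, adjusted p = 0.0449; 1.29-fold lower; exact permutation p = 0.0286). Its second probe gave -0.23 (adjusted p = 0.306). The pseudouridine synthase dyskerin (*Dkc1*) was at -0.42 with a wide spread (SE 0.22, adjusted p = 0.187) and 0.04 on its other probe. *Nhp2*, another core protein of this class, was at -0.17.

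In the small subunit processome, the early complex that cuts the precursor, all 8 members had a difference below 0 and 0 of 8 passed. *Utp20*, a large scaffold protein, measured 1.12, 0.98, 1.44 and 1.48 against 1.33, 1.70, 1.63 and 1.70, overlapping in part, with a difference of -0.33 (SE 0.13, adjusted p = 0.0880; 1.26-fold lower). The others were *Utp14a* at -0.30, *Wdr43* at -0.27, *Nop14* at -0.19, *Heatr1* at -0.17, *Noc4l* at -0.14, *Utp4* at -0.08 and the U3 particle protein *Rrp9* at -0.06. Each *Wdr43* value of Tsc2Δpodocyte samples (2.10 to 2.47) was under each Tsc2flox/flox value (2.53 to 2.90), with adjusted p = 0.0983.

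Of the 4 factors that finish the small subunit, 0 passed. *Bysl*, a factor of the pre-40S particle, measured 2.75, 2.61, 2.59 and 2.83 against 2.86, 3.05, 2.78 and 2.94. One Tsc2flox/flox value lay within the range of the Tsc2Δpodocyte values, and the difference was -0.21 (SE 0.09, adjusted p = 0.110; 1.16-fold lower). *Nob1*, the nuclease that makes the final cut, was at -0.21 and the export factor *Rrp12* at -0.16. *Ltv1*, another pre-40S factor, was at 0.17 and with *Ubtf* and *Polr1a* made up the 3 members above 0.

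Among the 8 large subunit assembly factors only *Bop1* passed. *Bop1* forms the PeBoW complex with *Pes1* and *Wdr12*. It measured 2.71, 2.57, 2.76 and 2.86 in Tsc2Δpodocyte samples (2.73 ± 0.12) and 3.0, 3.05, 2.99 and 2.96 in Tsc2flox/flox samples (3.0 ± 0.04). The groups did not overlap, and the difference was -0.27 (SE 0.09, adjusted p = 0.0413; 1.21-fold lower; exact permutation p = 0.0286). Its partners were at -0.07 (*Pes1*) and -0.16 (*Wdr12*). *Rrp1b* was at -0.40 (SE 0.16, adjusted p = 0.110), and 1 of its 2 dimmer probes passed at -0.49 (adjusted p = 0.0407). The rRNA methyltransferase *Nop2* was at -0.24, *Nop16* at -0.19, nucleostemin (*Gnl3*) at -0.17 and *Noc2l* at -0.15. The untreated groups did not overlap in *Nop2*, *Rrn3*, *Fbl* and *Wdr43* either. Each had the same exact permutation p = 0.0286 without passing by limma, so that p is not particular to the called members. The share of all genes with separate groups is not given here. Over all members with several tested probes, 25 of 27 further probes had the sign of the brightest one, and the 2 exceptions belong to *Ubtf* and *Dkc1*.

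**Figure D2:**
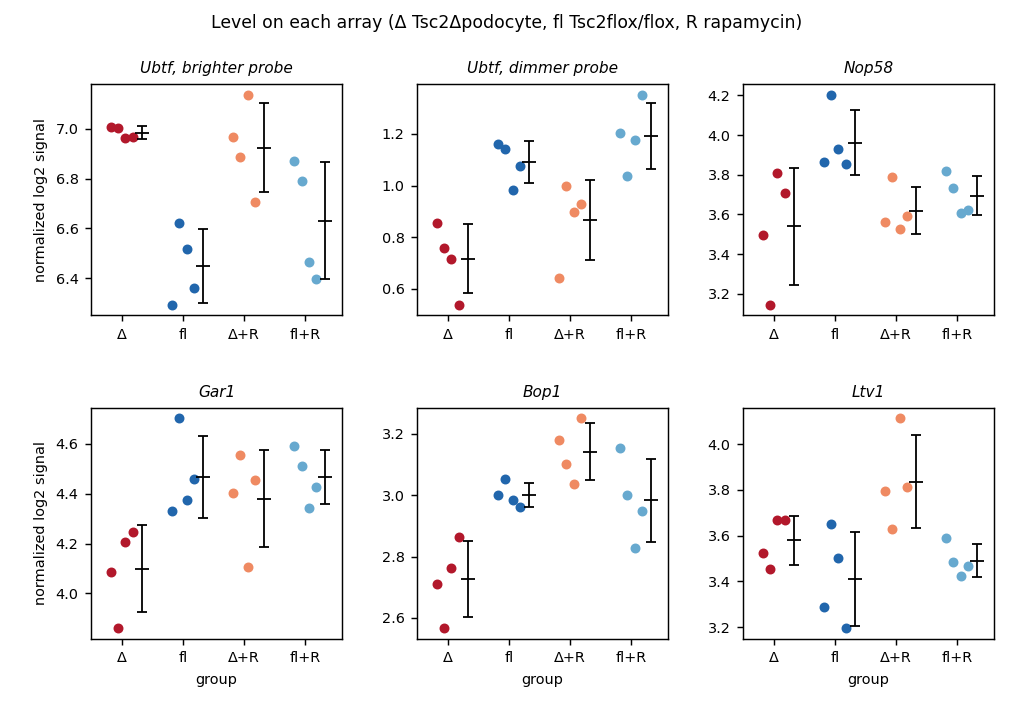
Normalized log2 signal on each array (points) with the group mean and SD (bars, n = 4) for both *Ubtf* probes and for *Nop58*, *Gar1*, *Bop1* and *Ltv1*; each panel has its own vertical scale. The *Ubtf* probes move in opposite directions between the untreated genotypes, and *Bop1* is lowest in the untreated Tsc2Δpodocyte samples.

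A pair of arrays stood apart in these genes. Relative to each gene's mean over the 16 arrays, the mean over the 38 members was -0.37 on Tsc2Δpodocyte replicate 2 and 0.23 on Tsc2flox/flox replicate 2, the lowest and the highest of all arrays. The other 3 Tsc2Δpodocyte arrays lay at -0.14, -0.05 and -0.03, and the other 3 Tsc2flox/flox arrays at -0.09, -0.01 and 0.01. Tsc2Δpodocyte replicate 2 was the lowest of the 16 arrays in 28 of 38 members, against 12.2% of all genes. Tsc2flox/flox replicate 2 was the highest in 17 of 38 members, against 9.85% of all genes. Tsc2Δpodocyte replicate 2 was also the highest array in 16.3% of all genes, so it stood apart in both directions in the genes at large.

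This pair was singled out for its values in the members, so that leaving it out had to lessen the difference. Without it, 27 members had a difference below 0 and 11 above, and the median was -0.07 against -0.0076 over all genes. *Ubtf* alone passed, and 2 members had an unadjusted p under 0.05, a count whose share over all genes is not given here. *Nop58* was then at -0.21 (adjusted p = 0.238), *Gar1* at -0.21 (adjusted p = 0.292) and *Bop1* at -0.20 (adjusted p = 0.216). Leaving out either of these arrays alone, or Tsc2Δpodocyte replicate 1, Tsc2flox/flox replicate 3 or Tsc2flox/flox replicate 4, also left 0 genes that fell. Without Tsc2Δpodocyte replicate 3 *Gar1* and *Bop1* lost their calls, and without Tsc2flox/flox replicate 1 *Nop58* and *Bop1* did. The same arrays were extreme in cell division genes: the mean over 23 proliferation genes was -0.61 on Tsc2Δpodocyte replicate 2, the lowest of the 16 arrays, and 0.75 on Tsc2flox/flox replicate 2, the highest. Of those 23 genes 0 passed between the untreated genotypes, with a median of -0.37. On other arrays the 2 lists went apart. On treated Tsc2Δpodocyte replicate 3 the proliferation mean was -0.54 and the member mean 0.02. On Tsc2flox/flox replicate 3 they were 0.39 and -0.01. Cell type markers were extreme there too: Tsc2Δpodocyte replicate 2 had the lowest parietal epithelial (-1.19) and tubule (-1.42) marker means of the 16 arrays. Its podocyte marker mean was 0.47, under the 0.61 of treated Tsc2Δpodocyte replicate 3. Tsc2flox/flox replicate 2 had the lowest macrophage and leukocyte mean (-0.95). The part of these lists in the result was not tested.

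**Figure D3:**
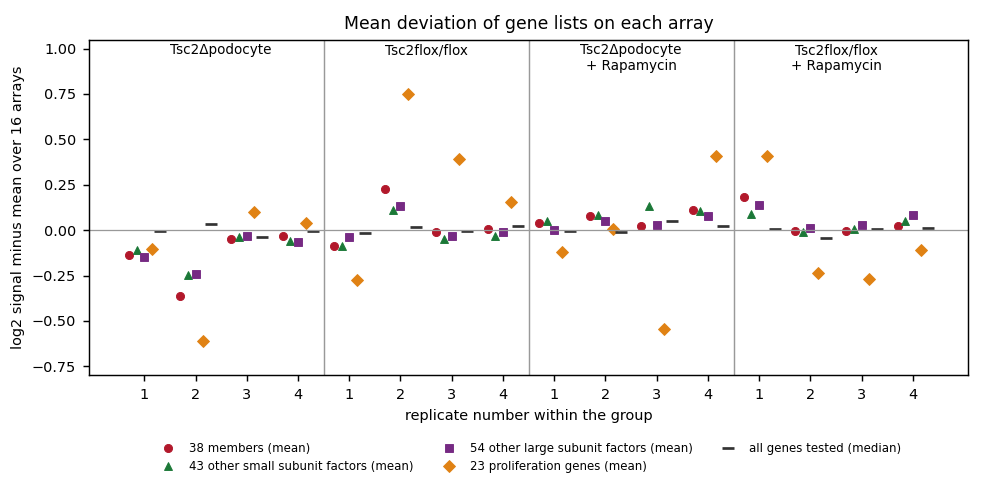
Mean log2 signal of 4 gene lists on each of the 16 arrays, as the deviation from each gene's mean over the arrays, with the median over all genes tested as a dash. The members, the other small and large subunit factors and the proliferation genes are all low on Tsc2Δpodocyte replicate 2 and above 0 on Tsc2flox/flox replicate 2, while the median over all genes tested, which the scaling of each array keeps near 0, lies between -0.04 and 0.05.

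**Figure D4:**
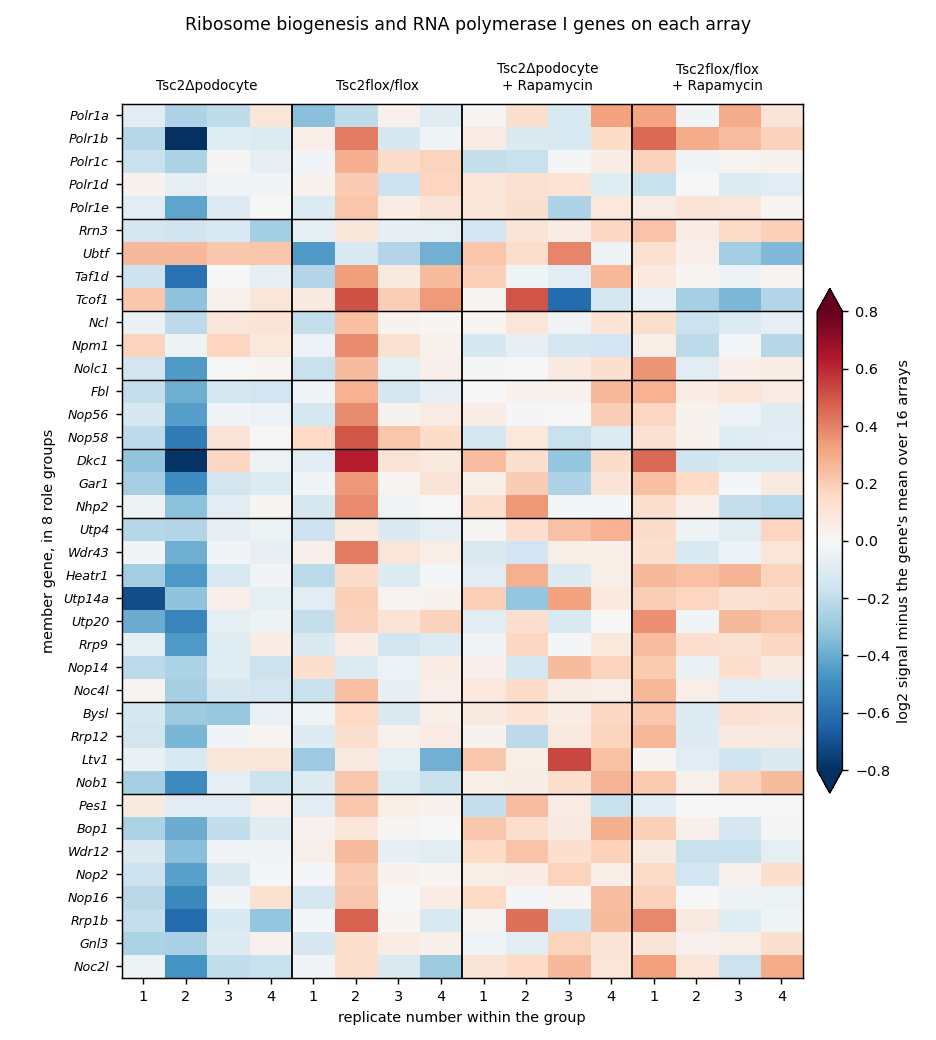
Deviation of each member's log2 signal from its mean over the 16 arrays (colour, limits at -0.8 and 0.8), by array in columns and by gene in rows, with lines between groups and between the 8 role groups. The column of Tsc2Δpodocyte replicate 2 is below the mean in 37 of 38 genes, and that of Tsc2flox/flox replicate 2 below it in 3, while *Ubtf* is above its mean in all 4 untreated Tsc2Δpodocyte arrays.

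After rapamycin the genotype difference had no common direction across the members. The median difference of the members was 0.00039 against 0.0066 over all genes, with 19 members above 0 and 19 below. By limma 0 of 38 passed, where 6.2% of all genes rose and 4.97% fell. An unadjusted p under 0.05 was found in 3 of the 38 members and in 3848 of the 14094 genes. The 3 members were *Ltv1*, *Wdr12* and *Ubtf*. *Ltv1* measured 3.79, 3.63, 4.11 and 3.81 in treated Tsc2Δpodocyte samples and 3.59, 3.49, 3.42 and 3.47 in treated Tsc2flox/flox samples. Its groups did not overlap, and the difference was 0.35 (SE 0.12, adjusted p = 0.0718). *Wdr12* was at 0.26 (SE 0.10, adjusted p = 0.0937). The brighter *Ubtf* probe was at 0.29 (SE 0.12, adjusted p = 0.134) with overlapping groups, and the dimmer one at -0.33 (SE 0.10, adjusted p = 0.0495). *Nop58* and *Gar1*, which fell without rapamycin, were at -0.08 and -0.09 here, and *Bop1* at 0.16.

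The test of whether the genotype difference itself changed with rapamycin, the interaction, gave 0 of 38 members by limma. Treated and untreated samples also differed in age and slide, so a change with rapamycin cannot be told apart from one with age or slide. Over all genes 0% rose and 0% fell in this test, with 1042 genes and 2 members at an unadjusted p under 0.05. Those members were *Bop1*, with an interaction of 0.43 (SE 0.12, unadjusted p = 0.00317, adjusted p = 0.615), and *Wdr12*, at 0.43 (adjusted p = 0.623). The median over the members was 0.19 against 0.0099 over all genes, with 34 above 0. Such a shift was not particular to the members. Proliferation genes were above 0 in 22 of 23 (median 0.41), other small subunit factors in 36 of 43 (median 0.20) and other large subunit factors in 44 of 54 (median 0.12). Macrophage and leukocyte markers were below 0 in 13 of 14 (median -0.75). This test uses the same pair of untreated arrays. The median over the members was 0.13 without Tsc2Δpodocyte replicate 2 and 0.12 without Tsc2flox/flox replicate 2.

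Treated and untreated samples of each genotype differed in age and lay on different slides as well, so rapamycin, age and slide cannot be told apart in what follows. In Tsc2Δpodocyte podocytes *Bop1* alone rose with treatment, in a list whose values were mostly higher. Among all genes 1.97% rose and 1.53% fell. The treated samples measured 3.18, 3.1, 3.04 and 3.25 for *Bop1* (3.14 ± 0.09), all above the untreated ones given before, a difference of 0.42 (SE 0.09, adjusted p = 0.0270; 1.33-fold; exact permutation p = 0.0286). Of the 38 members 35 were above 0, with a median of 0.23 against 0.01 over all genes, and 16 had an unadjusted p under 0.05, as had 3406 of 14094 genes. Parietal epithelial markers were above 0 in 9 of 9 cases in the same comparison (median 0.79, 0 passed). Endothelial markers were below 0 in 10 of 12 (median -1.89, 0 passed). Between treated and untreated Tsc2flox/flox samples, parietal markers were above 0 in 8 of 9 (median 0.52) and endothelial ones below 0 in 11 of 12 (median -1.84). Macrophage and leukocyte markers were above 0 in 11 of 14 in Tsc2flox/flox (median 0.73) and in 6 of 14 in Tsc2Δpodocyte samples (median -0.10). Mesangial and smooth muscle markers were above 0 in 9 of 12 (median 0.29) and in 5 of 12 (median -0.21, 1 fell). The part of these cell types in the result was not tested. The next smallest p-values belonged to *Nob1* at 0.39 (adjusted p = 0.0645), *Bysl* at 0.30 (adjusted p = 0.0730) and *Utp4* at 0.31 (adjusted p = 0.0742). The other large subunit factors *Rrp1b* (0.45), *Noc2l* (0.38), *Wdr12* (0.30) and *Nop2* (0.27) did not pass either. *Npm1* was at -0.22, *Ubtf* at -0.06 and *Tcof1* at -0.06, the members below 0. This comparison shares the untreated Tsc2Δpodocyte samples with the first one, the low replicate 2 included. Without that array *Bop1* was at 0.36 (adjusted p = 0.0615), 0 members passed and the median was 0.15. Leaving out Tsc2Δpodocyte replicate 1 or treated Tsc2Δpodocyte replicate 1, 2 or 4 also ended the call.

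In Tsc2flox/flox podocytes 0 of 38 members passed between treated and untreated samples by limma, where 0.106% of all genes rose and 0.0568% fell. An unadjusted p under 0.05 was found in 6 of the 38 members and in 2236 of the 14094 genes. The median was 0.01 against 0.0017 over all genes, with 20 members above 0 and 18 below. The largest differences were -0.51 for *Tcof1*, whose treated values (1.77 to 2.08) lay under all untreated values (2.20 to 2.64), and 0.32 for *Polr1a*. *Bop1*, which rose in treated Tsc2Δpodocyte samples, was at -0.02 (95% interval -0.20 to 0.17), and *Npm1* at -0.22 as in the other genotype. Whether the genotypes differed in their response is the interaction test above, in which no member passed.

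**Figure D5:**
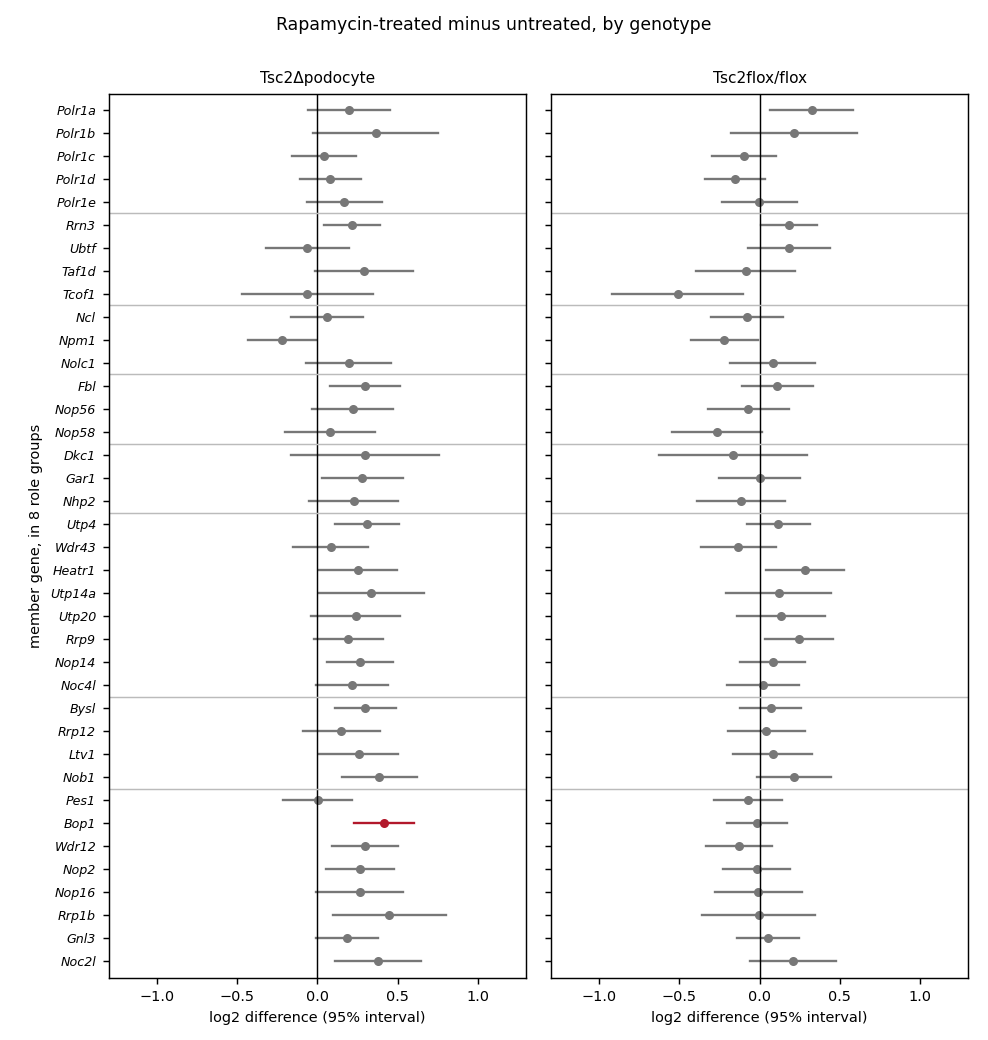
Log2 difference between treated and untreated samples for each of the 38 genes (points, with 95% intervals from limma), in Tsc2Δpodocyte podocytes on the left and in Tsc2flox/flox podocytes on the right. In the left panel 35 of 38 points lie above 0 and only *Bop1* (red) passed, and in the right panel 20 lie above 0 and none passed.

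Further lists of the same pathway, outside the 38, also held few genes that passed between the untreated genotypes. Of 8 other components of the RNA polymerase I machinery, 1 fell and 0 rose: *Tbp*, the TATA-binding protein shared by all nuclear RNA polymerases, at -0.40 (adjusted p = 0.00143). Of 43 other small subunit factors tested, 1 rose and 4 fell, with a median of -0.12. The kinase *Riok2* of pre-40S maturation was at -0.35 (adjusted p = 0.00766), and its relative *Riok3* at 0.47 (adjusted p = 0.0117). Of 54 other large subunit factors 0 rose and 5 fell, with a median of -0.12, among them *Sdad1* at -0.43 (adjusted p = 0.0152) and *Rpf1* at -0.41 (adjusted p = 0.0161). Of 10 small nucleolar ribonucleoprotein core and assembly factors *Znhit6* alone passed, at -0.35 (adjusted p = 0.0182). Of 13 genes of the RNA exosome and rRNA trimming 2 fell, *Exosc6* at -0.49 (adjusted p = 0.0101) and *Exosc4* at -0.27 (adjusted p = 0.0201). The share that fell in each list has to be read beside the 9.2% of all genes that fell.

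RNA polymerase III, which makes 5S rRNA and transfer RNAs, had 1 of 21 genes that rose and 3 that fell. Among all genes 10.3% rose and 9.2% fell between the untreated genotypes. *Bdp1*, a subunit of its initiation factor, was at -0.46 (adjusted p = 0.00599) and *Gtf3c5* at -0.28 (adjusted p = 0.0226), while *Polr3g*, an alternative polymerase subunit, was at 0.65. After rapamycin *Polr3g* was at 0.69 (adjusted p = 0.0329) and *Bdp1* at -0.35 (adjusted p = 0.0387). Of the 8 other components of the RNA polymerase I machinery, 1 then rose, the subunit *Polr1g* at 0.39. In the same comparison 2 of them fell, *Tbp* at -0.34 (adjusted p = 0.00879) and *Taf1c* of the selectivity factor at -0.37. Among all genes 6.2% rose and 4.97% fell after rapamycin. In treated against untreated Tsc2Δpodocyte samples 6 of 43 other small subunit factors rose, beside 1.97% of all genes, and 0 fell, with *Riok2* at 0.41 (adjusted p = 0.0205) and *Nol6* at 0.36 (adjusted p = 0.0220). There 2 of 54 other large subunit factors rose, *Las1l* at 0.43 and *Nol9* at 0.44, and 0 fell. These comparisons include Tsc2Δpodocyte replicate 2, where the small subunit list had a mean deviation of -0.25 and the large subunit list -0.24. In Tsc2flox/flox samples 0 genes of any of these lists passed.

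Of 12 genes of the MYC family, whose E-box was described above, *Mycn* and *Myc* fell between the untreated genotypes, at -2.83 (adjusted p = 0.000365) and -0.59 (SE 0.18, adjusted p = 0.0373), and the other 10 did not pass. Among all genes 9.2% fell between the untreated genotypes. After rapamycin *Mycn* was at -1.67 (adjusted p = 0.0154). Of 10 targets of p53, which is known to respond to disturbed ribosome production, *Phlda3* alone passed without rapamycin, at -0.40 (adjusted p = 0.0336), and the median was 0.13. The members that passed between the untreated genotypes and are in the promoter table, *Ubtf*, *Nop58* and *Gar1*, held no E-box in their windows. The 7 members that held one did not pass, but neither did 30 of the 33 members in that table. Such counts are too small to tell members with and without the motif apart, and a link to the motif was not tested.

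Row 1 of each slide held the Tsc2Δpodocyte samples and row 2 the Tsc2flox/flox samples, and so the position on the slide cannot be separated from genotype. *Nop58*, *Gar1* and *Bop1* also lost their calls when only the 8 arrays compared, all probes without a filter or the deposited values were used.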

How the data were processed

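Total RNA was measured on Agilent mouse arrays with 1 dye, Cy3. The authors scanned the arrays with Agilent Feature Extraction 10.7.3.1, and the deposited scanner files hold a background-subtracted intensity per spot. The deposited series table holds log2 values made by the authors, and each column correlated at r of at least 0.99975, across probes, with the values computed here after centring each probe on its median over the 16 arrays. Values here are log2 intensities from which each array's own 75th percentile, in log2, was subtracted. Each array has 62976 spots, 3671 of them controls. Probes were named through the RefSeq accessions of their annotation (GRCm38.p6 table), which matched 32994 of 56605 probes.

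A probe entered the tests if any group had it well above background on each of its 4 arrays, which left 27579 probes. A model of 4 group means over 16 arrays was fitted with limma 3.58.1 (R 4.3.3), with Benjamini-Hochberg adjustment in each of 5 comparisons. A gene rose or fell at an adjusted p under 0.05 on its brightest tested probe. The study's own threshold adds a 1.5-fold difference; it names no test for arrays. Single genes were also tested by 2-sided exact permutation over samples. The test was checked on simulated data. Precision is limited by having 4 arrays a group.

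The members, gene lists, tests and named genes were chosen with earlier results of these data known. Members with up to the 3 smallest adjusted p-values in each direction, and the smallest p of each role group, are given in full. The results were recomputed with quantile normalization, with normexp on the median spot and background signals (offset 50), with no and a stricter filter on dim probes, the deposited values, the 8 arrays compared alone, the methods' t-test (that of the general statistics), a trended prior, a replicate block, the mean of a gene's probes and each array left out. Leaving out a pair of arrays was chosen after seeing the data. Protein sequences were not used here.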

Additional observations from a re-analysis of the deposited data

Results flagged for a closer look

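Within the groups of 4 arrays, 12 of 152 combinations of a member and a group had 1 array set apart from the other 3 by Dixon's criterion, where chance alone gives about 1 in 20. Of these, 5 lay on replicate 2 of the untreated groups. On Tsc2Δpodocyte replicate 2, *Polr1b* was at -0.93 (nearest other array -0.11) and *Wdr43* at 2.10 (nearest 2.43). On Tsc2flox/flox replicate 2, *Rrn3* was at 2.28 (nearest 2.13), *Wdr43* at 2.90 (nearest 2.59) and *Nop2* at 4.77 (nearest 4.59).

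Among treated Tsc2Δpodocyte arrays, *Polr1d* was at 3.82 on replicate 4 (nearest 4.01) and *Fbl* at 5.52 on the same array (nearest 5.30). On replicate 3 of that group *Polr1e* was at 0.23 (nearest 0.56) and *Nop2* at 4.74 (nearest 4.62). On treated Tsc2flox/flox replicate 1, *Fbl* was at 5.54 (nearest 5.36), *Dkc1* at -0.51 (nearest -1.09) and *Pes1* at 3.93 (nearest 4.01).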

How the results depend on the processing

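Between the untreated genotypes *Ubtf* kept its call under every alternative except the mean of a gene's probes and the 1.5-fold rule, each of which left 0 genes that rose. The count that fell was 3, and became 5 with quantile normalization, 7 with normexp, 0 with no filter, 0 with the deposited values, 0 with the 8 arrays alone, 1 with the methods' t-test after adjustment and 7 before it, 0 with the 1.5-fold rule, 0 without the pair of replicate 2 arrays, and 0 to 3 when single arrays were left out. With the replicate block it was 0. *Gar1* lost its call with the mean of a gene's probes, and *Polr1c* was called as well with the trended prior. After rapamycin the counts of 0 became 2 that rose with normexp, 2 that rose and 1 that fell with the unadjusted t-test, and 0 to 1 that rose when single arrays were left out. For rapamycin in Tsc2Δpodocyte samples the 1 gene that rose became 2 (quantile), 9 (normexp, without *Bop1*), 0 (no filter), 0 (8 arrays), 0 (adjusted t-test), 12 with 1 that fell (unadjusted t-test), 0 (1.5-fold) and 0 to 1 (single arrays left out). For rapamycin in Tsc2flox/flox samples the counts of 0 became 1 that rose with normexp, and 4 that rose and 2 that fell with the unadjusted t-test. The interaction had 0 under all alternatives run, and no called difference changed sign. The cause of these shifts was not tested. Shares of all genes called under each alternative are not given here. A larger count of members therefore cannot be told apart from a setting that calls more genes at large. The labels do not say whether the replicate numbers pair the samples. Deviations of same-numbered samples of the genotypes correlated at -0.30 to -0.0055 without rapamycin and at -0.02 to 0.46 after it, not all above 0.1. Such correlations cannot settle how the samples were collected, and the main test used no pairing. The block changed no other count.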
